A study of Mus musculus with 7 samples.

Results

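MHC class I molecules carry short peptides from inside a cell to its surface, where CD8 T cells and NK cells read them. A heavy chain (in these mice H2-K1, H2-D1 and the non-classical H2-T23, known as Qa-1) folds with the light chain beta-2 microglobulin (B2m). Its peptides are cut by the proteasome, whose interferon-inducible subunits include Psmb8 and Psmb9. They enter the endoplasmic reticulum through the transporter Tap1-Tap2 and are loaded with the help of tapasin (Tapbp). Nlrc5 is a transactivator of MHC class I genes. The 10 genes H2-K1, H2-D1, H2-T23, B2m, Tap1, Tap2, Tapbp, Psmb8, Psmb9 and Nlrc5 were taken by symbol from a matrix of 55491 gene rows, and all 10 were found and had counts. Their levels were followed over 23 names of cell types from the authors' annotation, including tumour cells, and over 7 mice.

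The mice carried CT-2A, a mouse glioma line, in 1 brain hemisphere after intracranial injection at 8 to 12 weeks of age. 4 mice (KO) were Sall1CreERT2 x Siglecefl/fl: the tamoxifen-dependent Cre sits in the Sall1 locus, which is active in microglia within the brain's myeloid cells, and deletes floxed Siglece, an inhibitory receptor for sialic acid. 3 mice (WT) were Siglecefl/fl without Cre, so both groups had the floxed alleles, the tumour and tamoxifen (2.5 mg intraperitoneally, daily from day 7 to day 21 after injection of tumour cells and on alternate days after that). Live cells positive for CD45, CD11b or both were sorted from frozen and thawed suspensions and sequenced as 5-prime droplet libraries, 1 per mouse. The sort selects immune cells, so the 384 cells that the authors named tumour or stromal cells are those that came through it and need not represent the tumour.

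The 7 libraries held 1410 to 5856 cells and 16037214 to 38966377 UMIs (unique molecular identifiers, each standing for 1 captured transcript), 28644 cells in all. Of 28178 cell barcodes, 460 (1.63%) occurred in more than 1 library. Xist and Y-linked UMIs marked KO replicates 1 and 2 and WT replicate 3 as female and the others as male. The 23 names were joined into 9 classes, and marker lists were checked against them: 7 of 8 microglia, 6 of 6 plasmacytoid dendritic cell, 6 of 6 T cell, 5 of 5 NK cell, 5 of 5 B cell and 6 of 8 conventional dendritic cell markers were highest in their own class. Only 4 of 8 monocyte-derived markers and 8 of 14 glioma or stroma markers were. The conventional dendritic cell markers that were highest elsewhere were Cd209a and Clec10a, and the cDC2 name went against them: Cd209a was at 0.097 ± 0.257 CPM and Clec10a at 2.91 ± 2.24 CPM in it, below mo-DCs (44.3 ± 43.2 and 111 ± 51.9 CPM). Ccr7, the chemokine receptor of migrating mature dendritic cells, was at 3859 ± 870.3 CPM in cDC2 and 41.6 ± 26.4 CPM in cDC1 (SD, n = 7 for each value). The name cDC2 is therefore used below only as the authors' label. The cDC1 name had Xcr1 at 331 ± 45.1 CPM against 11.9 ± 6.80 CPM in cDC2. Microglia were few and mostly of the name low-quality or activated microglia (251 cells at a median of 2222 UMIs, 4.77% of them mitochondrial and 2.58% ribosomal), beside 163 cells of the main microglia name (6226 UMIs). A library entered a group with at least 20 cells there, which among the classes removed KO replicate 3 from microglia, KO replicate 1 from B cells and KO replicates 1 and 3 from tumour or stromal cells. Single names lost further libraries, among them WT replicate 1 from CD4 Tfh and Th1 cells, Tregs, exhausted CD8 T cells and both proliferating T cell names.

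8 of the members had a promoter in RefSeq's annotation of build GRCm38.p6. The 250 bases before the start are shown for 5 of these members, as written on the strand of the gene. Capitals mark matches, on either strand, to CCAAT (the core of the Y box bound by NF-Y), TGACG (the core of the X2 box), and GAANNGAAA or a form with longer spacing, GAAA and GAAA around any 2 bases (both of the kind found in interferon-stimulated response elements). The region chr17:34000334-34000583 (minus strand) is given for H2-K1, the downstream one of its annotated starts, chr17:35262844-35263093 (plus) for H2-D1, chr17:36032702-36032951 (minus) for H2-T23, chr2:122147437-122147686 (plus) for B2m and chr17:34187306-34187555 (plus) for Tap1.
H2-K1: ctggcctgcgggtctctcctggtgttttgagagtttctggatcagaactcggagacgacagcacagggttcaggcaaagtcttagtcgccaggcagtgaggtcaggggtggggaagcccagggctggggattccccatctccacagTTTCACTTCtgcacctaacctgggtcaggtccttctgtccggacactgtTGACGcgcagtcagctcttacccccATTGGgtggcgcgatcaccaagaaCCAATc
H2-D1: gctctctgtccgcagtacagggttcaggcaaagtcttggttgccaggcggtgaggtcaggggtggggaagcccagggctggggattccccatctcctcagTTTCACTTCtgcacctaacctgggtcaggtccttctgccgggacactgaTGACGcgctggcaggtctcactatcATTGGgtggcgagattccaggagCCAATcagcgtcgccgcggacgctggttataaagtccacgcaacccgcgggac
H2-T23: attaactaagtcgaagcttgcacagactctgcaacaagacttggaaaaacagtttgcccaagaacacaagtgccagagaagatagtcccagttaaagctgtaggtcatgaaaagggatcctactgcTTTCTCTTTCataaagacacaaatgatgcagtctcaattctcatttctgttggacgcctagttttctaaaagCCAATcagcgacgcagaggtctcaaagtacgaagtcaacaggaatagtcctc
B2m: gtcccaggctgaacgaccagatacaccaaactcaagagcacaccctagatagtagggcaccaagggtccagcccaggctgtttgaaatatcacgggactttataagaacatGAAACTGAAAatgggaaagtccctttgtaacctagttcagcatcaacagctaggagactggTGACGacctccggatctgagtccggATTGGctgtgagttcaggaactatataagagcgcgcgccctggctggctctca
Tap1: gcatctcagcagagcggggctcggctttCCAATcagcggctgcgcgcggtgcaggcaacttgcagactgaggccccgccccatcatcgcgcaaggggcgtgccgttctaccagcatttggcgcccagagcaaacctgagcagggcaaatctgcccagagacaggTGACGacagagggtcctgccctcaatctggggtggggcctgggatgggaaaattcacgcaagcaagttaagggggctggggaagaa
The H2-K1 and H2-D1 windows carried the same order of matches, with GAANNGAAA beginning 104 and 150 bases before the start, TGACG at 55 and 101, and CCAAT at 30 and 6 in H2-K1 and at 76 and 53 in H2-D1. B2m had the longer form at 139, TGACG at 78 and CCAAT at 53 bases. The H2-T23 window had the longer form at 124 and CCAAT at 52 bases, and these TGACG and GAANNGAAA letters were not in it. Tap1 and Psmb9 lie head to head, and their windows (with the 50 bases after each start) shared 275 bases, so the Tap1 sequence is the reverse strand of most of the Psmb9 promoter. Of the windows not shown, that of Psmb8 had 0 matches to these motifs, that of Tapbp CCAAT alone, and that of Psmb9 CCAAT and TGACG. No match to the motifs overlapped a match to another. Of 32851 promoter windows of the same length, 33.8% held CCAAT, 17.8% TGACG, 6.31% GAANNGAAA and 2.98% the longer form. In the same annotation 8 of the genes lie on chromosome 17, from Tapbp at 33919478 to H2-T23, which ends at 36032701, while B2m begins on chromosome 2 at 122147687 and Nlrc5 on chromosome 8 at 94434335.

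Levels are given as UMIs of the gene per 1000000 UMIs of the cell group (CPM), as mean ± SD over libraries. The heavy chain H2-K1, the main restriction element of this haplotype together with H2-D1, was highest in Tregs (4800 ± 65.9 CPM, n = 6), then in the Ccr7-high cells named cDC2 (3995 ± 457, n = 7) and in pDCs, the plasmacytoid dendritic cells (3758 ± 399, n = 7). It was lowest in low-quality or activated microglia (1508 ± 213, n = 5) and in cDC1, the conventional dendritic cells known for cross-presentation (1654 ± 231, n = 7). Ranges over libraries overlapped between every pair of neighbours in this order, so only distant names can be told apart. H2-D1 had the same leading 3 names, with 4542 ± 252 CPM in Tregs (n = 6), 4434 ± 396 in cDC2 and 4011 ± 386 in pDCs (n = 7 for both), and was again lowest in low-quality or activated microglia at 1723 ± 222 (n = 5). The ratio of the mean level in the highest name to that in the lowest was 3.18 for H2-K1 and 2.64 for H2-D1. The SD of this ratio taken within libraries was 0.48 and 0.27 (n = 4 libraries with both names). Of the H2-D1 UMIs, 18.1% lay in values that were not whole numbers, against 11.9% for H2-T23, 1.60% for H2-K1 and 8.71% over all genes. How these values arose is not given in the sources used here. The class I heavy chains resemble one another in sequence, and the levels of single chains are uncertain to the extent that reads were shared between them.

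H2-T23 encodes the Qa-1 chain that is read by the NK receptor pair of Klrc1 and Klrd1. It was highest in pDCs at 1278 ± 158 CPM (n = 7), a range that did not overlap the next name, cDC2 at 791 ± 94.2 (n = 7). It was lowest in tumour or stromal cells at 123 ± 34.8 (n = 5), below the next name, low-quality or activated microglia at 281 ± 57.8 (n = 5), without overlap of their ranges. The ratio of mean levels, pDCs to tumour cells, was 10.4, and the SD of the ratio within the 5 libraries with both was 3.44. B2m was highest in cDC2 (5524 ± 600 CPM, n = 7) and main microglia (4265 ± 475, n = 3, all WT), and lowest in low-quality or activated microglia (930 ± 115, n = 5), whose range lay below that of the next name, cDC1 (2170 ± 248, n = 7). The ratio of the means of these extremes was 5.94, with an SD of 0.48 over the ratios within 5 libraries.

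The processing genes had another order. The immunoproteasome subunits Psmb8 and Psmb9 were highest in cDC1 (1235 ± 50.2 and 659 ± 66.8 CPM) and cDC2 (1189 ± 96.6 and 562 ± 52.0), with n = 7 for each. The Psmb8 ranges of both lay above those of every other name, the next being mo-DCs, the monocyte-derived dendritic cells, at 836 ± 76.7 (n = 7). Both subunits were lowest in low-quality or activated microglia (92.4 ± 29.3 and 87.6 ± 64.7, n = 5). Tap1 was highest in cDC1 (393 ± 46.4, n = 7), cDC2 (332 ± 28.8, n = 7) and Tregs (323 ± 53.8, n = 6) and lowest in tumour or stromal cells (111 ± 7.30, n = 5). Its partner Tap2 led in Tregs (286 ± 27.5, n = 6), with tumour or stromal cells again last (64.7 ± 10.8, n = 5). Tapbp ran from 534 ± 63.7 in cDC2 (n = 7) to 79.5 ± 17.1 in tumour or stromal cells (n = 5). By CPM, cDC1 therefore stood at the top for Psmb8, Psmb9 and Tap1 and next to last for H2-K1 and B2m, while cDC2 were among the leading names for all of these. These ranks depend on the scale. Per cell, cDC1 had 25.5 ± 3.91 H2-K1 and 33.3 ± 2.56 B2m UMIs. Tregs had 20.5 ± 4.73 and 15.7 ± 3.31 and cDC2 33.4 ± 8.53 and 45.6 ± 9.38.

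Nlrc5, the transactivator, had 10621 UMIs in the whole matrix. Its highest CPM was in low-quality or activated microglia (106 ± 23.2, n = 5), which corresponds to 0.27 UMIs per cell there, followed by naive or early activated CD8 T cells (98.4 ± 19.5, n = 7) and cDC2 (96.0 ± 27.1, n = 7). Its lowest level was in B cells (26.9 ± 12.6, n = 6). Over the 23 names, Pearson's r of its log2(CPM + 1) with the other members lay between -0.17 (Psmb9) and 0.47 (Tap2), whereas H2-K1 with H2-D1 gave 0.89, Psmb8 with Psmb9 0.88, H2-T23 with Tapbp 0.83 and Tap1 with Tap2 0.78. These are descriptions over 23 groups that share libraries and differ in depth. Among 9022 genes, the most alike to H2-T23 was H2-M3 (r = 0.875), another non-classical heavy chain, to H2-K1 after H2-D1 it was H2-Q7 (0.87), and to Tap1 they were Tap2 (0.78) and Psmb9 (0.76). For Psmb8 it was Dazap2 (0.92), for B2m Atp6v1f (0.87) and for Nlrc5 Ppp1r12a (0.89), none of which belongs to the pathway.

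**Figure D1:**
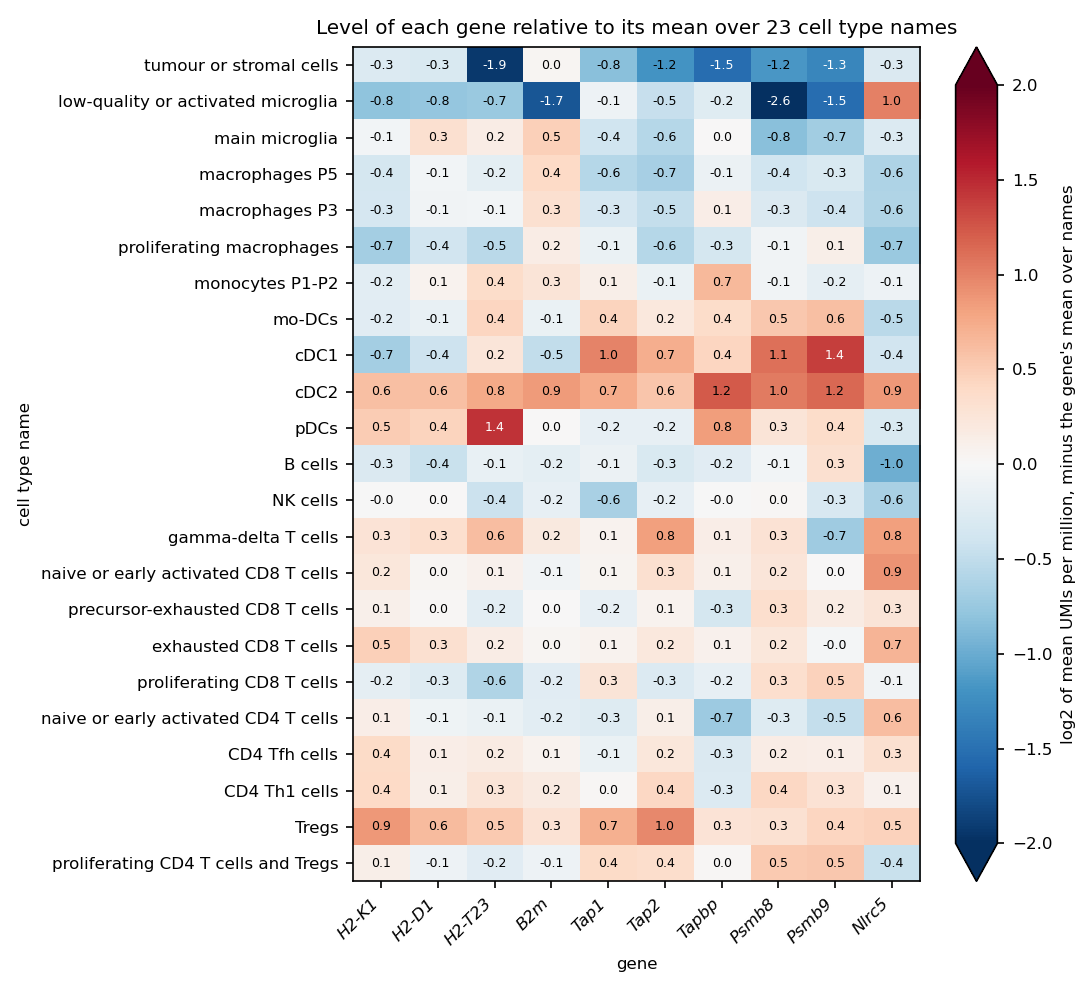
Mean level of the 10 genes (columns) in the 23 cell type names (rows), as log2 CPM minus the mean of that gene over names, so that colours compare names within a gene. Tumour or stromal cells are blue for H2-T23, Tapbp, Tap2 and the proteasome subunits, cDC2 are red throughout, and cDC1 are red for Psmb8, Psmb9 and Tap1 but blue for H2-K1 and B2m.

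**Figure D2:**
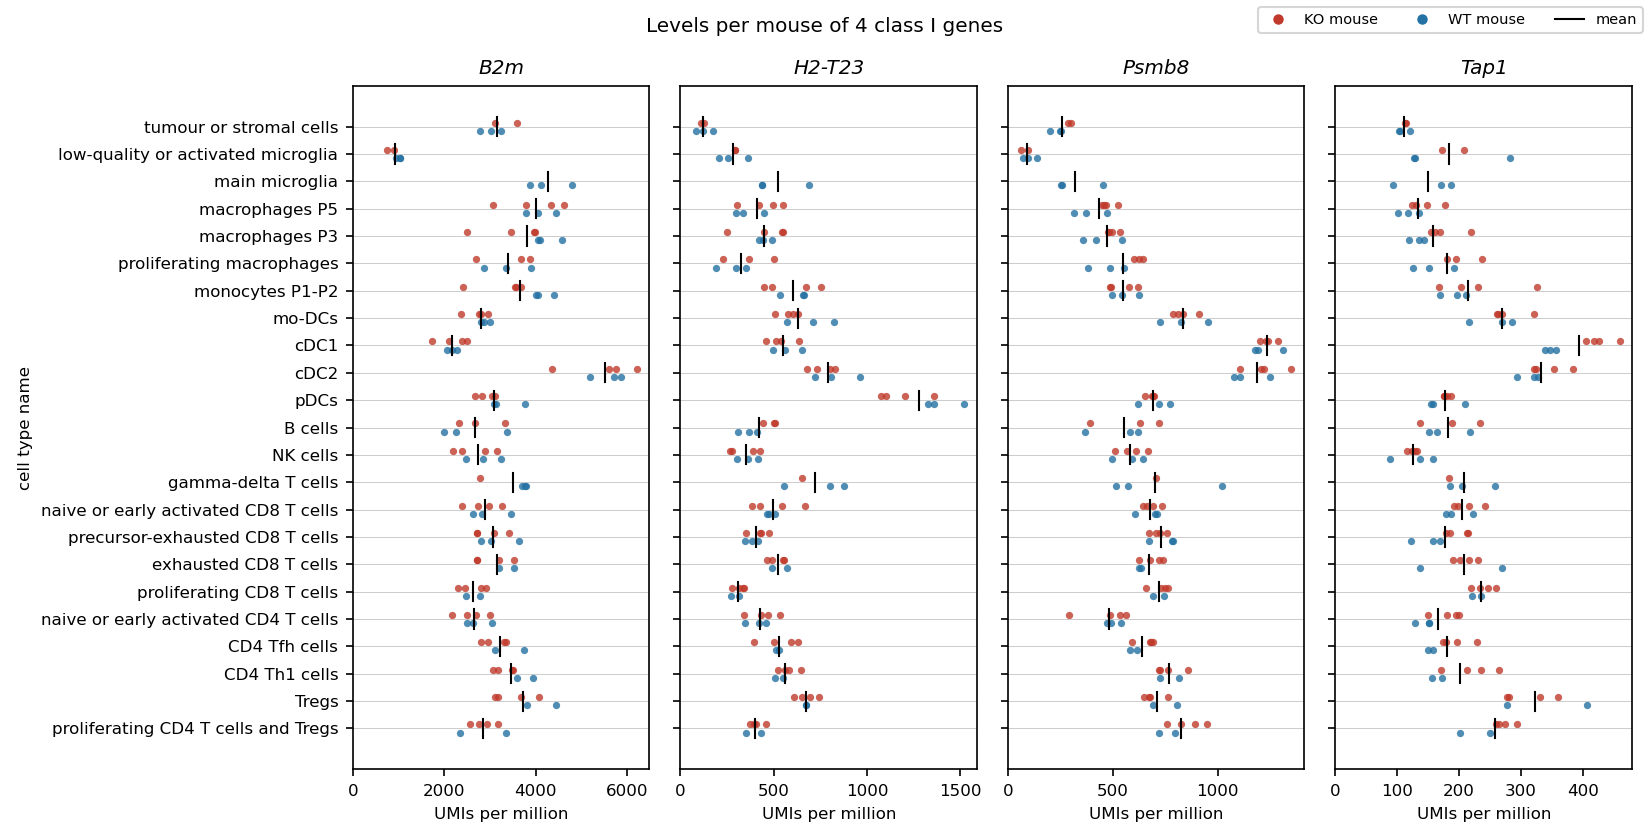
UMIs per 1000000 UMIs (CPM) of B2m, H2-T23, Psmb8 and Tap1 in each mouse with at least 20 cells of a name (red, KO; blue, WT), with the mean as a black bar. KO and WT points intermingle in most names, while pDCs lie above every other name for H2-T23 and both cDC1 and cDC2 for Psmb8. The highest B2m values are in cDC2, whose range overlaps those of main microglia, macrophages P5 and further names.

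Tumour or stromal cells were compared with the mean of the 8 immune classes within mice, to see where these cells stand as presenters. After TMM scaling every member was lower in tumour cells. B2m in tumour or stromal cells was 3598 and 3107 CPM in KO replicates 2 and 4 and 3027, 3232 and 2782 CPM in the WT mice, values inside the range of T cells (2712 to 3694). H2-T23 in the same libraries was 109, 125, 123, 80.6 and 177 CPM, all below the lowest value of the 8 immune classes (267, in NK cells of KO replicate 1). Single names went lower, to 193 in proliferating macrophages, which is still above all 5. B2m thus lay within the range of T cells and H2-T23 below every immune class. In edgeR's quasi-likelihood test with 1 term per mouse, all 10 of 10 members were called lower at an adjusted p under 0.05. This was against 37.7% of the 13366 genes tested, so lower calls were common and the count alone says little. The median over members was -1.48 on the log2 scale and that of all genes -0.10.

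H2-T23 was lower by the most (log2 -2.68, SE 0.14, adjusted p = 1.06e-24), followed by the loading factor Tapbp (-2.21, SE 0.13), Psmb9 (-2.02, SE 0.15), Psmb8 (-1.75, SE 0.12), Tap2 (-1.64, SE 0.11) and Tap1 (-1.31, SE 0.11), and then by the classical chains H2-D1 (-0.81, SE 0.09) and H2-K1 (-0.73, SE 0.11). B2m (-0.51, SE 0.10) and Nlrc5 (-0.46, SE 0.13, adjusted p = 0.0019) were nearest to the median of all genes. Nlrc5 lost its call without WT replicate 1 (-0.29, adjusted p = 0.080) and without WT replicate 2 (-0.28, adjusted p = 0.094). B2m and Nlrc5 had no call with library totals in place of TMM scaling, at 0.01 and 0.09, a scaling that moved the median of all genes to 0.45.

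Tumour cells also held more RNA per cell, with a median of 20569 UMIs against 2222 to 13792 in the other names. Per cell they had 75.1 ± 17.1 B2m UMIs and 51.8 ± 9.64 H2-K1 UMIs (SD, n = 5), against 33.3 ± 2.56 and 25.5 ± 3.91 in cDC1 and 15.9 ± 1.91 and 18.9 ± 4.73 in exhausted CD8 T cells (n = 7 and 6). H2-T23 was at 2.90 ± 0.88 UMIs per tumour cell, against 8.51 ± 1.22 per cDC1 and 2.67 ± 0.54 per exhausted CD8 T cell. In a fit offset by cell number, added after seeing the data, the median of all genes was 2.20 higher in tumour cells and 7 members were called higher, led by Nlrc5 (1.83), B2m (1.81) and H2-K1 (1.60), each with an adjusted p under 0.05. Tapbp (0.13), Psmb9 (0.28) and H2-T23 (-0.36, adjusted p = 0.054) were not called. Per cell all 10 lay below the median of all genes, at -0.38 (Nlrc5) to -2.57 (H2-T23) relative to it. A change of offset moves all genes by nearly the same amount, so these relative positions are not a second test. Summed over 7 immune markers (Ptprc, Cd52, Coro1a, Laptm5, Tyrobp, Cd3e and Cd79a), tumour or stromal cells of the 5 libraries had 67.6 to 209 CPM against 5736 to 7399 CPM in T cells, and 2 of the 5 libraries had 1 of the 7 markers at 0. The part of such RNA in the members' levels was not tested.

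Microglia were compared with monocyte-derived cells, the resident against the infiltrating phagocytes. 9 of 10 members were called lower in microglia, beside 25% of 13366 genes. Psmb8 was at 236, 196 and 189 CPM in microglia of KO replicates 1, 2 and 4 and at 191, 227 and 358 CPM in the WT mice, against 527, 485, 508 and 500.5 CPM in monocyte-derived cells of KO and 387, 403 and 531 CPM of WT. The groups did not overlap. The log2 change was -1.54 for Psmb8 (SE 0.14, adjusted p = 4.06e-14), -1.21 for Psmb9 (SE 0.17), -0.94 for B2m (SE 0.12), -0.65 for Tapbp, -0.57 for Tap2, -0.47 for H2-T23, -0.46 for H2-D1, -0.41 for Tap1 and -0.39 for H2-K1. Nlrc5 was not called, at 0.23 (95% interval -0.16 to 0.62). The median over members was -0.52 and over all genes -0.20.

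This contrast differed between the 2 names of microglia, but main microglia alone also left out all KO mice. In WT mice alone the whole class had 4 members called. Name and mice therefore cannot be told apart in the calls for main microglia. Low-quality or activated microglia alone gave B2m -2.90 (SE 0.18) and Psmb8 -3.19 (SE 0.23), whereas main microglia alone, from 3 WT mice, kept only Psmb8 (-0.74, adjusted p = 1.54e-05) and Psmb9 (-0.67, adjusted p = 0.0012) of the members as lower, with B2m at -0.18 (adjusted p = 0.29). B2m was at 3883, 4797 and 4115 CPM in main microglia of the WT mice and at 1029, 953 and 1023 CPM in their low-quality or activated microglia, which do not overlap. Mitochondrial UMIs were 4.77% in low-quality or activated and 2.06% in main microglia, and ribosomal UMIs 2.58% and 10.3%. The part of this difference in the result was not tested. Without KO replicate 2, H2-K1 (-0.23), Tap1 (-0.31) and H2-T23 (-0.34) were no longer called and H2-D1 was at -0.25, and without WT replicate 1 Tap1 (-0.24) and H2-T23 (-0.37) were not. The number of calls fell to 5 with RLE size factors, to 4 with library totals (3 lower, and Nlrc5 higher) and to 4 in WT mice alone.

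The cells named cDC1 and cDC2 were compared because cDC1 are known to present exogenous antigen on class I. With Ccr7 as high in cDC2 as given above, a difference between subsets and one between states of maturation cannot be told apart. H2-K1, H2-D1, H2-T23, B2m, Tapbp and Nlrc5 were lower in cDC1, while Tap1, Tap2, Psmb8 and Psmb9 did not pass the test. B2m in cDC1 was 1732, 2486, 2109 and 2390 CPM in KO replicates 1 to 4 and 2048, 2161 and 2267 CPM in the WT mice. In cDC2 it was 4359, 6216, 5759 and 5595 CPM in KO and 5703, 5859 and 5178 CPM in WT. Every cDC2 value exceeded every cDC1 value. 6 of 10 members were called lower and 0 higher, beside 34.2% of 10230 genes called lower: B2m (-1.41, SE 0.08, adjusted p = 4.88e-12), H2-K1 (-1.33, SE 0.08), Nlrc5 (-1.33, SE 0.13), H2-D1 (-1.07, SE 0.08), Tapbp (-0.86, SE 0.09) and H2-T23 (-0.58, SE 0.08). The values of the other 4 were Tap1 0.18 (95% interval -0.0085 to 0.36), Psmb9 0.17 (-0.0082 to 0.35), Tap2 0.12 (-0.063 to 0.30) and Psmb8 -0.0016 (-0.16 to 0.16). The median over members was -0.72 against -0.0058 over all genes. cDC1 had 13792 and cDC2 6439 UMIs per cell at the median, and per cell the same 4 processing genes were called higher in cDC1 (0.98 to 1.16, where the median of all genes was 0.99), B2m, H2-K1 and Nlrc5 remained lower (-0.43, -0.36 and -0.33), and H2-T23 turned to 0.39.

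Monocytes of the name P1-P2 were compared with macrophages P5. 9 of 10 members were called higher in monocytes, beside 22.3% of 11068 genes called higher. Tapbp led (0.94, SE 0.08, adjusted p = 7.56e-09): in monocytes it was 309, 276, 427 and 426 CPM in KO and 408, 326 and 347 CPM in WT, and in macrophages P5 203, 174, 219 and 251 CPM in KO and 215, 192 and 226 CPM in WT, with no overlap. Tap1 (0.85, SE 0.10), H2-T23 (0.75, SE 0.11), Tap2 (0.73, SE 0.10) and Nlrc5 (0.70, SE 0.12) followed, then Psmb8 (0.52, SE 0.10), H2-K1 (0.32, SE 0.10), Psmb9 (0.32, SE 0.09) and H2-D1 (0.30, SE 0.07). B2m did not pass, at 0.03 (95% interval -0.12 to 0.18), and its sign turned under other scalings. The median over members was 0.61 and over all genes -0.02. H2-K1 and Psmb9 lost the call without KO replicate 3 (0.23 and 0.24), WT replicate 1 (0.14 and 0.17) or WT replicate 2 (0.28 for both), and Psmb9 also without WT replicate 3 (0.28). H2-D1 was at 0.17 without WT replicate 1. In KO mice alone 4 members were called, and per cell, where the median of all genes was -0.51, 3 were higher (Tapbp 0.46, Tap1 0.37 and H2-T23 0.27) and B2m was lower (-0.45).

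**Figure D3:**
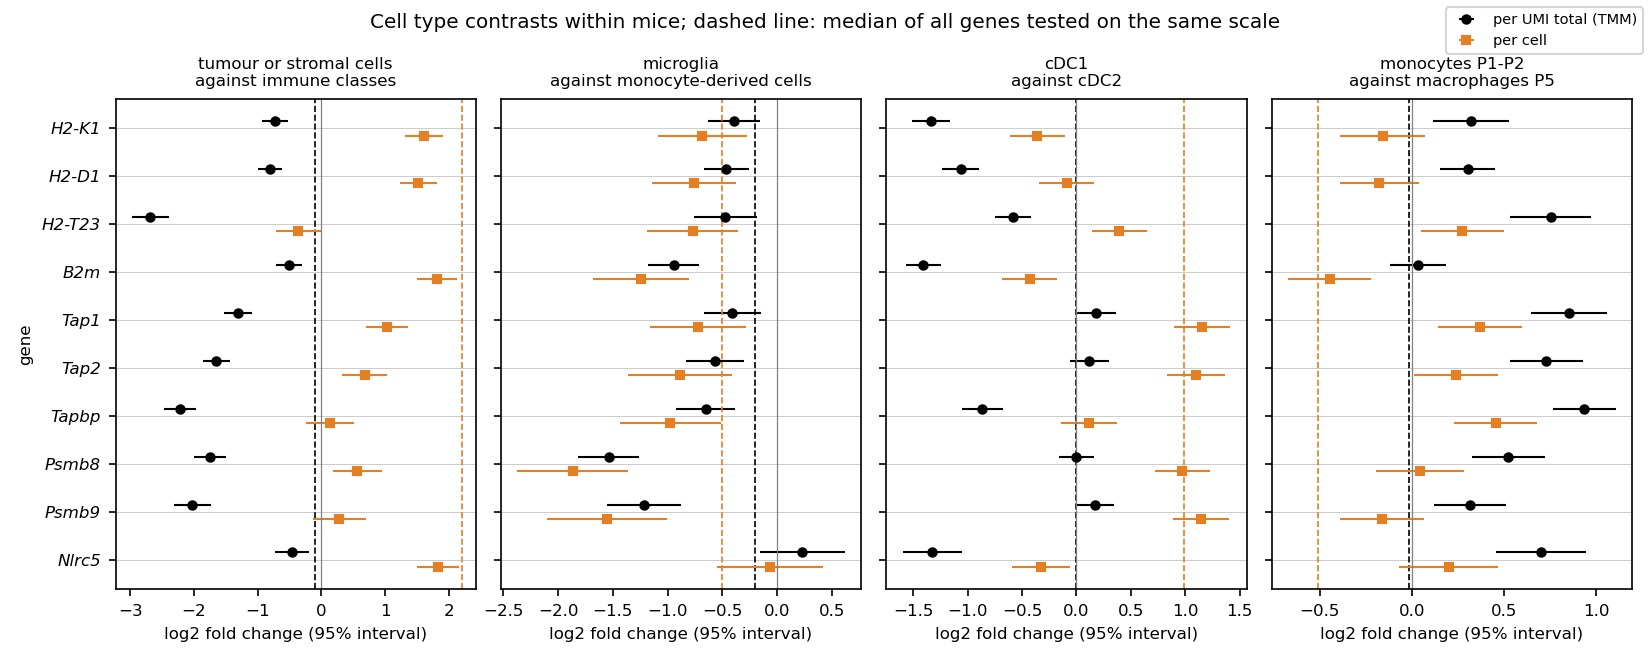
Log2 fold changes with 95% intervals of the 10 genes in 4 contrasts within mice, per UMI total (black circles) and per cell (orange squares), with the median of all genes on each scale as a dashed line. In tumour cells all 10 genes lie below the dashed line of their scale, and in cDC1 H2-K1, H2-D1, H2-T23, B2m, Tapbp and Nlrc5 lie below it while Tap1, Tap2, Psmb8 and Psmb9 lie near it. The change of scale moves all genes by nearly the same amount, so positions relative to the line are nearly the same on both.

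The rest of the pathway was read from the same fits. Of 15 other genes of peptide processing and loading, 10 were lower and 3 higher in tumour or stromal cells, among them the proteasome activator subunits Psme1 (-2.70) and Psme2 (-2.08), the tapasin relative Tapbpl (-2.45) and the third inducible subunit Psmb10 (-1.81). The constitutive proteasome did not share this: 4 of 14 subunits were higher and 2 lower, with a median of -0.03 near that of all genes. All 10 genes of the interferon receptor list (Ifng, the receptor chains, the Jak kinases and their Socs inhibitors) were lower (median -1.93), as were 10 of 18 regulators, including Irf1 (-2.03), an interferon-induced factor that acts on class I promoters. Of the interferon response genes, 7 of 24 were higher (Ifit1 2.60) and 9 lower (Mx1 -4.71), near the shares of all genes (36.5% higher and 37.7% lower). In microglia against monocyte-derived cells all 14 constitutive subunits were lower (median -1.09), beside 25% of all genes. The class held 251 low-quality or activated microglia beside 163 main microglia, and the mitochondrial and ribosomal shares of both are given above. In the genotype fit of the low-quality or activated name 0 of the 14 subunits passed the filter on low counts. Only 2350 genes passed it there, so this is not a measure of the subunits' level. The part of these cells in the result was not tested. In cDC1 against cDC2, 9 of 14 constitutive subunits were higher (median 0.33) and 0 lower, and of the processing list 7 were higher, led by the chaperones Calr (1.83) and Pdia3 (1.45), and 5 lower, led by Psme2 (-1.57) and Tapbpl (-1.46), beside 34.5% of all genes called higher and 34.2% lower. The class II transactivator Ciita, a relative of Nlrc5, was 3.86 higher in cDC1. In monocytes against macrophages P5, 19 of 24 interferon response genes were higher and 0 lower (median 1.23), with Mx1 at 1.61 and Zbp1 at 1.56, beside 9 of 18 regulators, with Irf7 at 1.56 and Irf1 at 1.25, where 22.3% of all genes were called higher and 19.5% lower. Other class I and class I-like chains differed by gene: H2-Q6 (-2.06) and H2-Q4 (-2.06), whose values are so alike that shared reads cannot be told apart, H2-M2 (-6.68) and Cd1d1 (-3.62) were lower in cDC1, and Fcgrt, the neonatal Fc receptor, was higher (2.48).

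The genotype comparison asked whether losing Siglece in Sall1-expressing cells went with a change of class I genes in any class. edgeR called 0 of 10 members in each of the 9 classes. The share of all genes called was 0.0415% in microglia, 0% in monocyte-derived cells, 0% in mo-DCs, 0% in conventional and 0.045% in plasmacytoid dendritic cells, 0% in T cells, 0.0141% in NK cells, 0% in B cells and 0.0288% in tumour or stromal cells. Of 90 member values in classes, 5 had an unadjusted p under 0.05, and the smallest adjusted p in edgeR was 0.379. Over all genes, the share with an unadjusted p under 0.05 ran from 0.947% in B cells to 11.8% in microglia. In 16 further fits within single names no member was called either. There the share of genes called was 0.213% in low-quality or activated microglia, 0% in monocytes P1-P2, 0% in macrophages P3, 0.0188% in macrophages P5, 0% in proliferating macrophages, 0% in cDC1 and 0% in cDC2. Among T cell names it was 0% and 0.0241% in naive or early activated CD4 and CD8 cells, 0.0114% in CD4 Tfh cells, 0.0326% in CD4 Th1 cells, 0.0411% in Tregs, 0.0494% in proliferating CD4 T cells and Tregs, 0% in precursor-exhausted, 0.0135% in exhausted and 0% in proliferating CD8 T cells. 8 of 159 member values in names had an unadjusted p under 0.05. The share of all genes there ran from 3.63% in proliferating CD4 T cells and Tregs to 9.67% in cDC2. DESeq2 called 0 of 249 values, with 8 at an unadjusted p under 0.05.

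Tap1 was nearest to a common direction, above 0 in 9 of 9 classes, from 0.0054 in NK cells to 0.31 in monocyte-derived cells (95% interval -0.07 to 0.69). In cDC1 it was 426, 419, 461 and 406 CPM in KO replicates 1 to 4 and 339, 356 and 346 CPM in WT. All 4 KO mice lay above all WT mice, yet the log2 change of 0.29 (SE 0.10) had an adjusted p of 0.73 in edgeR. The same separation held in macrophages P3 (154, 161, 219 and 170 CPM against 135, 118 and 144; 0.41, adjusted p = 0.89) and in precursor-exhausted CD8 T cells (214, 185, 212 and 178 CPM against 122, 169 and 157; 0.39, adjusted p = 1.00). Of all genes with a mean of at least 10 CPM, 3.01%, 3.23% and 3.52% were separated in this direction in cDC1, macrophages P3 and precursor-exhausted CD8 T cells. Tap1 was so in 5 of 21 names. The 9 classes come from the same mice and are not independent. Leaving out 1 library turned the sign in microglia (-0.088 without WT replicate 1), mo-DCs (-0.028 without WT replicate 2), plasmacytoid dendritic cells (-0.067 without WT replicate 2), NK cells (-0.21 without WT replicate 3 and -0.018 without KO replicate 4), B cells (-0.081 without KO replicate 4 and -0.036 without WT replicate 1) and tumour or stromal cells (-0.016 without WT replicate 1 and -0.0035 without KO replicate 4). In monocyte-derived cells, conventional dendritic cells and T cells it kept the sign, from 0.20 to 0.44, 0.21 to 0.24 and 0.14 to 0.22. The lowest of these in monocyte-derived cells came without KO replicate 3, which had 222 CPM against 148, 157 and 161 CPM in the other KO and 137, 125 and 154 CPM in the WT mice.

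Nlrc5 was below 0 in 7 of 9 classes, of which tumour or stromal cells (-0.046) turned to 0.15 without KO replicate 4, 0.022 without WT replicate 1 and 0.0053 without WT replicate 3. In plasmacytoid dendritic cells it was 40.4, 34.5, 21.3 and 29.9 CPM in KO and 79.8, 45.6 and 47.3 CPM in WT, without overlap, a log2 change of -0.80 (95% interval -1.37 to -0.23, unadjusted p = 0.0073, adjusted p = 0.63 in edgeR), and -0.47 without WT replicate 1. In NK cells it was 21.9, 27.4, 29.5 and 24.8 CPM in KO and 40.6, 63.6 and 28.6 CPM in WT, with overlap (-0.71, adjusted p = 1.00), and the change was -0.36 without WT replicate 2. Within names it was -0.59 in cDC2 (adjusted p = 0.42, and -0.37 without WT replicate 1) and -0.52 in monocytes P1-P2 (adjusted p = 0.68), where it was 48.8, 32.9, 38.7 and 47.4 CPM in KO and 55.1, 56.0 and 64.1 CPM in WT. These are low counts, at 0.29 UMIs per plasmacytoid dendritic cell. In plasmacytoid dendritic cells, 3.04% of all genes with a mean of at least 10 CPM had all KO mice below all WT mice. In monocytes P1-P2 this share was 3.10%.

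In the same plasmacytoid dendritic cells the heavy chain H2-D1 was at 3734, 3772, 3507 and 4051 CPM in KO and 4130, 4199 and 4689 CPM in WT, again without overlap, for a log2 change of -0.20 (95% interval -0.42 to 0.01, adjusted p = 0.79). Of all genes with a mean of at least 10 CPM, 3.04% were separated in this direction in these cells. H2-K1 was at -0.21 (adjusted p = 0.79) and H2-T23 at -0.24 (adjusted p = 0.78) there, with overlapping groups. In tumour or stromal cells Psmb9 was at 117 and 141 CPM in KO and 80.2, 92.1 and 81.0 CPM in WT (log2 change 0.61, 95% interval 0.23 to 1.00, adjusted p = 0.38), and its immunoproteasome partner Psmb8 at 289 and 299 against 200, 248 and 252 CPM (0.34, adjusted p = 0.60, and 0.22 without WT replicate 1). Only 2 KO mice had enough of these cells. Here 11.4% of all genes with a mean of at least 10 CPM had all KO mice above all WT mice. Psmb9 in Tregs lay the other way, at 243, 333, 257 and 301 CPM in KO and 393 and 503 CPM in 2 WT mice (-0.64, adjusted p = 0.46). Among genes with a mean of at least 10 CPM in Tregs, 7.47% had all KO mice below all WT mice.

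In microglia, the cells in which the driver acts, the members' log2 changes lay between -0.40 and 0.19 with a median of -0.08, and the lowest and highest bounds among their 10 intervals (95%) were -1.03 and 0.75. B2m in microglia was 2070, 2867 and 3012 CPM in KO and 2927, 3844 and 3275 CPM in WT (-0.36, 95% interval -0.81 to 0.08, adjusted p = 0.52), and the groups overlapped. The value was -0.23 without KO replicate 1, and from -0.53 to -0.23 over all libraries left out in turn. It was -0.71 with at least 10 cells per library, which adds KO replicate 3. All 13 microglia of that library were low-quality or activated microglia, and 0% were main microglia. The class joins its 2 names in different proportions by genotype: main microglia, the name with the higher B2m, were 33.3%, 33.3% and 30.6% of the microglia of KO replicates 1, 2 and 4 and 38.9%, 52.2% and 40.6% in WT. Within low-quality or activated microglia B2m was at 750 and 896 CPM in KO replicates 1 and 4 and at 1029, 953 and 1023 CPM in WT (-0.30, 95% interval -0.91 to 0.30, adjusted p = 0.89). In this name 11.2% of all genes with a mean of at least 10 CPM had all KO mice below all WT mice. No KO library had 20 main microglia. In the pooled class, genotype and the mix of names cannot be told apart. An interaction term compared the effect of genotype in microglia with that in monocyte-derived cells, and 0 of 10 members were called beside 0.367% of 14186 genes. The member with the smallest p was Psmb8, with a difference of effects of -0.64 (SE 0.29, unadjusted p = 0.027, adjusted p = 0.47).

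B2m in monocytes P1-P2 was 2419, 3687, 3564 and 3538 CPM in KO and 3996, 4401 and 4043 CPM in WT, each KO mouse lying below each WT mouse (log2 change -0.37, adjusted p = 0.71 in edgeR, and -0.25 without KO replicate 1). In this name 3.10% of all genes with a mean of at least 10 CPM were separated in the same direction. KO replicate 1 had the lowest B2m of all mice in each of the 7 classes where it had 20 cells, and WT replicate 2 the highest in 6 of 9. B2m was below 0 in 6 of 9 classes. With single libraries dropped, this count was 4 (WT replicate 2), 6 (KO replicates 1 and 3) and 7 (KO replicate 2). It rose to 8 of 9 when either of the other WT mice, or KO replicate 4, was dropped. The replicate block gave 8 of 8. B2m was called in none of these fits, and the classes share mice. Over the 21 names with enough libraries in both genotypes and the 10 members, 14 of 210 member values had all KO mice above all WT mice and 10 had all below. These shares are near those of all genes with a mean of at least 10 CPM in the same names, where 5.79% of 169911 values had all KO mice above and 5.15% all below, and are not a result about the members. Of these, 5 of the higher were Tap1 and 4 of the lower were B2m, while Tap2 and Tapbp had 0 of either.

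**Figure D4:**
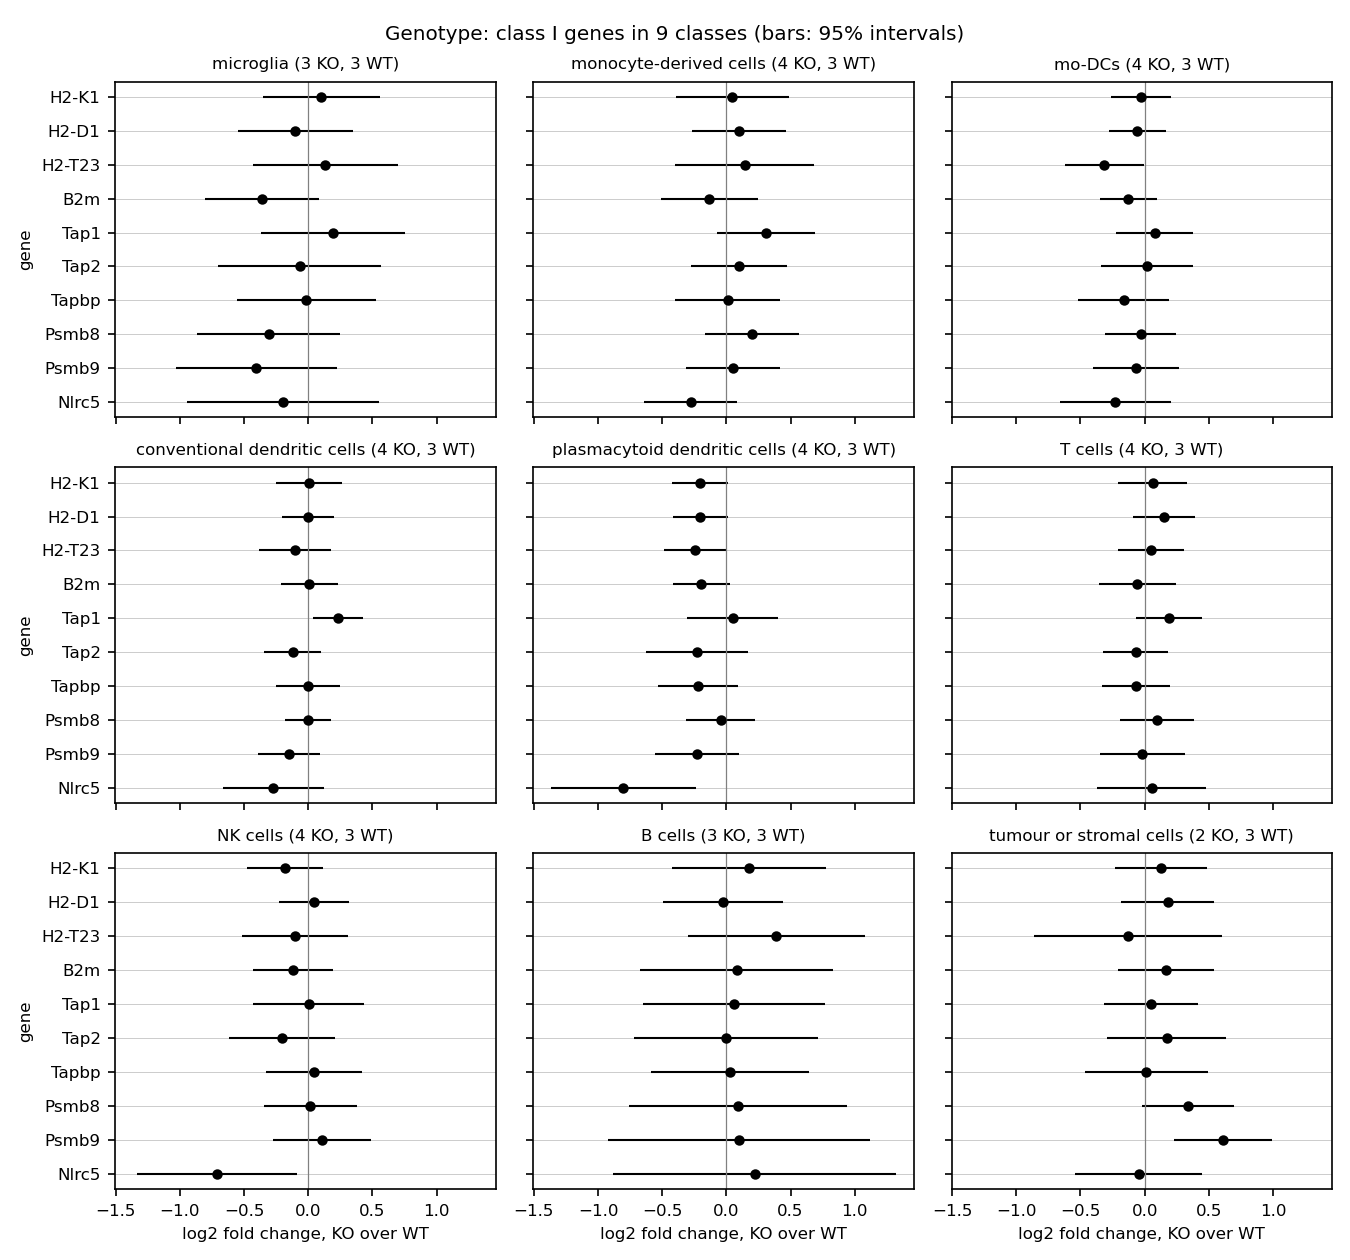
Log2 fold changes of KO over WT for the 10 genes in each of 9 classes, with 95% intervals and the number of mice in the title of each panel. Nearly all intervals cross 0, Tap1 lies at or above 0 in every panel, and the intervals of Nlrc5 in plasmacytoid dendritic cells and of Psmb9 in tumour or stromal cells are among those that do not.

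Interferon response genes, many of which share inducers with class I genes, were at other values in the same fits. Their median log2 change (KO over WT) was -0.77 in T cells, with 17 of 24 at an unadjusted p under 0.05, -0.69 in conventional dendritic cells (15 of 24), -0.94 in mo-DCs (19 of 24) and -0.80 in plasmacytoid dendritic cells (8 of 17 tested). Over all genes the share at an unadjusted p under 0.05 was 6.56%, 6.95%, 7.6% and 6.38% in these 4 classes. edgeR called 0 genes of the list in any of the 9 classes. The T cell class joins names whose shares differed by mouse: precursor-exhausted CD8 T cells were 23.5%, 41.0%, 53.8% and 33.1% of T cells in KO replicates 1 to 4 and 6.75%, 10.6% and 35.4% in WT. Within single T cell names the list's median was nearer to 0 than the -0.77 of the class. Counts at an unadjusted p under 0.05 are given with the share of all genes. In CD8 T cells the median was -0.24 in precursor-exhausted (3 of 22, beside 3.82%), -0.21 in exhausted (2 of 20, beside 4.86%) and -0.15 in proliferating cells (1 of 18, beside 3.65%). It was -0.17 in CD4 Tfh (2 of 21, beside 4.26%) and -0.24 in CD4 Th1 cells (5 of 21, beside 3.69%). Naive or early activated CD4 T cells were at -0.36 (7 of 21, beside 5.02%) and proliferating CD4 T cells and Tregs at -0.13 (1 of 17, beside 3.63%). Tregs (-0.64, 13 of 21, beside 5.02%) and naive or early activated CD8 T cells (-0.65, 13 of 24, beside 4.97%) came nearest to the class. The fits of CD4 Tfh and Th1 cells, Tregs, exhausted CD8 T cells and both proliferating T cell names lacked WT replicate 1. Without this mouse the class was at -0.53. Exhausted CD8 T cells were at -0.72 without WT replicate 3, which left 1 WT mouse. The parts of the mix of names and of the mice fitted in these values were not tested. In the dendritic names the list's median was -0.66 in cDC1 (11 of 24, beside 5.83% of all genes) and -1.001 in cDC2 (10 of 22, beside 9.67%). Leaving out 1 library gave -0.78 to -0.46 in cDC1 (6 to 14 genes under 0.05) and -1.34 to -0.58 in cDC2 (7 to 16). The list was at -0.46 in monocyte-derived cells (3 of 24 at an unadjusted p under 0.05), -0.23 in NK cells (1 of 22), -0.17 in B cells (0 of 8) and -0.087 in tumour or stromal cells (2 of 22), where 5.64%, 4.09%, 0.947% and 8.62% of all genes were under 0.05. Within monocyte-derived names it was -0.63 in monocytes P1-P2 (9 of 24, beside 6.71% of all genes), -0.57 in macrophages P3 (5 of 24, beside 5.41%), -0.42 in macrophages P5 (4 of 24, beside 6.78%) and -0.55 in proliferating macrophages (3 of 21, beside 3.68%). Leaving out 1 library gave -0.81 to -0.49 in monocytes P1-P2 (4 to 13 genes under 0.05) and -0.78 to -0.39 in macrophages P3 (2 to 11). It gave -0.52 to -0.27 in macrophages P5 (2 to 11) and -1.17 to -0.18 in proliferating macrophages (1 to 15). With each library left out in turn, the class median lay from -0.96 to -0.53 in T cells (12 to 21 genes under 0.05), -0.86 to -0.49 in conventional dendritic cells (10 to 16), -1.14 to -0.70 in mo-DCs (13 to 21), -1.14 to -0.59 in plasmacytoid dendritic cells (3 without WT replicate 1 to 12 without WT replicate 2) and -0.67 to -0.31 in monocyte-derived cells (2 to 10, the 10 without KO replicate 4). The medians of the class I members in T cells, conventional dendritic cells, mo-DCs and plasmacytoid dendritic cells were 0.05, -0.0011, -0.06 and -0.21, beside 0.01, 0.0055, 0.0064 and 0.01 over all genes. In microglia the interferon response list was at -0.01 with 0 of 20 under 0.05, beside 11.8% of all genes. The constitutive proteasome had medians of -0.0031, -0.03, 0.03 and -0.08 in the same 4 classes. Among the 16 single names fitted, edgeR called list genes in 1, naive or early activated CD8 T cells, where 2 of 24 were lower beside 0.0241% of all genes: Iigp1 (-1.77, adjusted p = 0.0059) and Ifit1 (-1.25, adjusted p = 0.035), both interferon-induced. Both lost the call in edgeR without WT replicate 2 (Iigp1 -1.67 and Ifit1 -1.31, adjusted p = 0.123 for both). Ifit1 also lost it without KO replicate 2 (-1.20, adjusted p = 0.252) and WT replicate 1 (-1.05, adjusted p = 0.236).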

How the data were processed

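Single-cell RNA sequencing of 7 mice (4 KO, 3 WT) was analysed from 1 deposited matrix of 55491 genes by 28644 cells and the authors' cell table, from which the cell type names came. The authors deposited UMIs per gene and cell, which are estimated counts since part of them are not whole. Per the submitters' processing notes, STARsolo, STAR 2.7.10a, FastQC 0.11.5 and build mm10 were used. The deposited cell table gives the count of detected genes and the percent of mitochondrial and ribosomal UMIs. How doublets were treated is not given in the sources used here, and no doublet caller was run.

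UMIs were summed per mouse and cell group (at least 20 cells) and rounded. edgeR 4.0.16 (R 4.3.3) fitted quasi-likelihood models over all genes, with TMM scaling, filterByExpr, robust dispersion and Benjamini-Hochberg adjustment. A gene was called at an adjusted p under 0.05. Contrasts between cell groups had 1 term per mouse, and genotype contrasts had none. Mice are the replicates. The script was tested on simulated data. Alternatives were RLE factors, library totals, no low-count filter, whole-number values, a replicate block, DESeq2 1.42.0, a sex term, other cell minimums, 1 genotype alone and leaving out each library. Offsets by cell number and single microglia names were added after seeing the data. Shares over all genes beside member counts, and dendritic cell markers by name, were added after seeing the data. The 10 genes, the gene lists and the contrasts were chosen with earlier results of these data known. Named genes are the 10 members, up to 5 called genes per list and comparison, and for likeness the 3 genes with the highest Pearson's r of log2(CPM + 1) over names. Promoters are from RefSeq (GRCm38.p6). Tap2 and Nlrc5 are named without one.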

Additional observations from a re-analysis of the deposited data

Results flagged for a closer look

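In 60 groups of 4 KO libraries (a gene in a class), 5 had 1 library apart from the other 3 by Dixon's criterion, and chance gives about 1 in 20. H2-D1 in conventional dendritic cells was 2999 CPM in KO replicate 4, against 2594 to 2658 in the others. H2-D1 in monocyte-derived cells was 2193 CPM in KO replicate 1, against 3101 to 3140. Nlrc5 in conventional dendritic cells was 33.5 CPM in KO replicate 2, against 52.7 to 55.3. Tap1 in mo-DCs was 321 CPM in KO replicate 3, against 261 to 269.7. Tapbp in mo-DCs was 232 CPM in KO replicate 2, against 297 to 308.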

How the results depend on the processing

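In the cell type contrasts, 56 of 62 alternative counts of called members were within 1.5 times of the reported count. This tally ignores direction: per cell, tumour or stromal cells had 7 members called higher in place of 10 lower. In microglia against monocyte-derived cells the count of 9 was 5 with RLE factors, 4 with library totals, 4 in WT mice alone and 2 with main microglia alone, which came from WT mice only. In monocytes P1-P2 against macrophages P5 the count of 9 was 4 in KO mice alone and 4 per cell. No genotype fit, of 322 alternatives, called a member (smallest adjusted p 0.135).

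With the replicate block, the members called in genotype fits were 0. Tap1 turned to -0.021 in NK cells and -0.26 in B cells. Without the mouse term the cell type contrasts called 10, 9, 6 and 6 members (tumour, microglia, cDC1, monocytes). Same-numbered mice deviated from their genotype means with r from -0.235 to 0.119 over 2 classes. Mice of different numbers were not compared, so this cannot decide whether the numbers pair them.

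These log2 values turned sign. Per cell, tumour or stromal cells gave H2-K1 1.60, H2-D1 1.52, B2m 1.81, Tap1 1.02, Tap2 0.68, Tapbp 0.13, Psmb8 0.56, Psmb9 0.28 and Nlrc5 1.83, microglia Nlrc5 -0.063, cDC1 H2-T23 0.39, Tapbp 0.12 and Psmb8 0.98, and monocytes H2-K1 -0.16, H2-D1 -0.18, B2m -0.45 and Psmb9 -0.16. With library totals, tumour or stromal cells gave B2m 0.011 and Nlrc5 0.088, microglia H2-K1 0.19, H2-D1 0.11, H2-T23 0.095 and Tap1 0.14, cDC1 Psmb8 0.057 and monocytes B2m -0.14. Main microglia alone gave H2-K1 0.044, H2-D1 0.17, H2-T23 0.032 and Nlrc5 -0.14. Psmb8 in cDC1 was 0.011 with RLE factors, 0.15 with no low-count filter, 0.0040 with whole-number values and 0.019 in KO mice alone. B2m in monocytes was -0.0072 with RLE factors, -0.054 with no low-count filter and -0.16 in KO mice alone. Nlrc5 by genotype in tumour or stromal cells was 0.069 with at least 10 cells per library. The cause was not tested.

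Leaving out 1 library at a time, Tap1 by genotype ranged from -0.088 to 0.39 in microglia, -0.028 to 0.15 in mo-DCs, -0.067 to 0.21 in plasmacytoid dendritic cells, -0.21 to 0.21 in NK cells, -0.081 to 0.25 in B cells and -0.016 to 0.15 in tumour or stromal cells. In T cells H2-K1 ranged from -0.0027 to 0.12, B2m from -0.14 to 0.044 and Nlrc5 from -0.10 to 0.15. Nlrc5 in tumour or stromal cells ranged from -0.34 to 0.15, Psmb8 in cDC1 against cDC2 from -0.034 to 0.033 and B2m in monocytes against macrophages from -0.086 to 0.077. Tumour or stromal cells and microglia rest on 21 to 121 cells per mouse.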

Other observations

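The ratio of H2-D1 to H2-K1 UMIs was 1.36 ± 0.0851 in monocyte-derived cells and 1.00 ± 0.0923 in T cells (SD, n = 7 for both), with no overlap of their ranges. With whole-number values alone, an alternative chosen after seeing the data, it was 1.04 ± 0.119 and 0.910 ± 0.0787, and the ranges overlapped. In tumour or stromal cells it was 1.09 ± 0.0464 as deposited and 0.737 ± 0.0884 with whole-number values (SD, n = 5). Values that were not whole held 18.1% of the H2-D1 UMIs and 1.60% of the H2-K1 UMIs. Leaving them out therefore tends to lower the ratio, and cannot decide whether the classes differ.

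In the interaction of genotype with microglia against monocyte-derived cells, the interferon response genes Rsad2 (1.87, adjusted p = 0.00111 in edgeR) and Oasl2 (1.21, adjusted p = 0.0297) were called higher, 2 of 24 in the list, beside 0.127% of all genes called higher and 0.24% lower. Without KO replicate 1 neither was called (Rsad2 0.72, adjusted p = 0.757; Oasl2 1.07, adjusted p = 0.33). Oasl2 also lost the call without KO replicate 2 (0.97) and without each WT mouse in turn (1.11, 1.22 and 1.31 without WT replicates 1, 2 and 3). The microglia class holds its 2 names in different proportions in KO and WT mice, and the part of this in both values was not tested.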
